A study of Rattus norvegicus with 21 samples.

Results

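The complement and coagulation factors made by the liver were followed as a set of 40 listed genes across RNA-seq libraries of rat liver. Members were taken by gene symbol from both deposited expression tables, with the row of highest mean count where a symbol was repeated. Of the 40, 39 were found among the 32623 genes of each table, and all 39 passed the filter on low counts in both. Mbl2, a mannose-binding lectin, was not analysed here. Cfb had 2 rows, and the one used (ENSRNOG00000051158) excludes a low-count row that also spans C2. The libraries came from 7 groups of 3 samples. The Wistar rats were either controls or early weaned, sampled at age 23 (d23) or age 63 (d63). The SD rats, a strain named so in the labels and all sampled at age 211 (d211), were controls, early weaned, or early weaned with 1.5% leucine in the drinking water. The labels used here give neither the age at weaning nor the sex of the animals, nor whether each sample was a separate animal.

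Complement is a cascade of plasma proteases and pore-forming proteins that marks and lyses microbes. It is started by the classical, lectin or alternative pathway, passes through C3 and ends in the membrane attack complex. Coagulation is a parallel cascade in which the contact system or the tissue factor pathway leads to thrombin, which turns fibrinogen into fibrin. Antithrombin, the protein C system and plasmin limit or dissolve the clot, and the hepatocyte secretes most of these proteins into plasma.

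Promoters of 7 members are shown because of how the genes changed with age: C1r, Vtn, C8a and C4bpa rose from d23 to d63 in both control and early weaned livers, whereas the 3 fibrinogen genes passed the test in neither. Each is the stretch of 250 bases before the annotated start, 5′ to 3′ on the gene's own strand, from RefSeq on the GRCr8 build. Capitals mark a HNF1 half-site (GTTAAT) or an IL-6 response element (CTGGGAA), searched on both strands; neither motif contains the other, and a match on the opposite strand reads as ATTAAC or TTCCCAG.
C1r promoter (chr4:159098763-159099012, plus strand): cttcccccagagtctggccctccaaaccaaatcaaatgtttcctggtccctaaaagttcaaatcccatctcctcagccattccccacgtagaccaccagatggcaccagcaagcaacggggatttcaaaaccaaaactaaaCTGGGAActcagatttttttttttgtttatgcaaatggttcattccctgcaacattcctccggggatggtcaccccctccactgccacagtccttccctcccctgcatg
Vtn promoter (chr10:63892532-63892781, plus strand): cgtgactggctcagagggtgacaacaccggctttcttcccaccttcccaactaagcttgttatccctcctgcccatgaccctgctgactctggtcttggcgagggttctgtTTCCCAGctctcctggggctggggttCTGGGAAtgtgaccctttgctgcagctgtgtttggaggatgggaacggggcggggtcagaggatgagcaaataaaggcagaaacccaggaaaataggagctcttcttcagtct
C8a promoter (chr5:124866632-124866881, minus strand): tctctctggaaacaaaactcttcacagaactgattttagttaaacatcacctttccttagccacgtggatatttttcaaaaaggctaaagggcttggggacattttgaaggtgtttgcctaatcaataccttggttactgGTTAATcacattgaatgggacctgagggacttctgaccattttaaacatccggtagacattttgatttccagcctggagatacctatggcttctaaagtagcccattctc
C4bpa promoter (chr13:44663472-44663721, minus strand): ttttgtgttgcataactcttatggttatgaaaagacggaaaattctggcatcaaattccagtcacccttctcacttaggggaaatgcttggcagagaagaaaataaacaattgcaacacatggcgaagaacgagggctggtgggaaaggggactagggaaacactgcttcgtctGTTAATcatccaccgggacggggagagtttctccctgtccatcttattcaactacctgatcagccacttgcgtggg
Fga promoter (chr2:170671919-170672168, plus strand): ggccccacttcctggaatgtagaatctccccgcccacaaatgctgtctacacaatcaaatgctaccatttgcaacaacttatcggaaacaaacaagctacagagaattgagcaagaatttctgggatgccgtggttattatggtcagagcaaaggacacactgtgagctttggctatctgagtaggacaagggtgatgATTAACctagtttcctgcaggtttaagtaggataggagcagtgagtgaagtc
Fgb promoter (chr2:170700876-170701125, minus strand): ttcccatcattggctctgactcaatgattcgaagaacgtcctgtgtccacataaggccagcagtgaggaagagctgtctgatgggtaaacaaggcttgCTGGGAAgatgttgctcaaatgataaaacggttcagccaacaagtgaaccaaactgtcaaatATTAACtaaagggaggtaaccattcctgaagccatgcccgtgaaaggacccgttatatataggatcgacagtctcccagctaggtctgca
Fgg promoter (chr2:170652833-170653082, plus strand): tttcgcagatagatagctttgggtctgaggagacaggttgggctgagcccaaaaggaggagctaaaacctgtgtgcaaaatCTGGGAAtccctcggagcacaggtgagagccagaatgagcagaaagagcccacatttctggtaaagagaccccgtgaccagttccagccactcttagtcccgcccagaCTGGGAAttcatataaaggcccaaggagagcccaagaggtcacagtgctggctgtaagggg

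The search covered windows from 250 bases before to 50 after the start, and 30 of the 39 members had such a window. HNF1 is a liver transcription factor of many plasma protein genes, the IL-6 response element is bound by the acute phase factor STAT3, and C/EBP factors drive both constitutive and acute phase transcription. GTTAAT was found in 10 of the 30 member windows, against 7.45% of all 33469 windows. CTGGGAA was found in 10 of 30, against 11.3% of all windows. The C/EBP letters TTGCNNAA were found in 12 of 30, against 10.6%. Among the 11 members with a window that rose with age in both groups, 4 held GTTAAT, 5 held CTGGGAA and 6 held TTGCNNAA. A match describes the letters only.

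Total counts ran from 52054644 to 75118153 per library, and fold changes below are from edgeR with an adjusted p below 0.05 over all tested genes as the threshold. Each table was fitted alone, because strain, oldest age and table are one split whose effects cannot be told apart. Some libraries stood apart. Control d23 replicate 3 correlated better with the control d63 libraries (mean r 0.916) than with its own group (0.908), and albumin took 18.1% of its counts. The other control d23 libraries correlated better with the early weaned d23 group than with their own, and 2 control d63 libraries correlated slightly better with the early weaned d63 group. Where leaving out control d23 replicate 3 changed a call, the value without it is given or the gene is named. Calls lost without other libraries are mostly given as counts further on, not gene by gene.

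The members were abundant liver transcripts in every group. Together they took 3.07% to 3.76% of counts in control d23 livers and 3.51% to 4.29% in early weaned d23 livers. At d63 the share was 4.99% to 5.29% in controls and 4.64% to 5.52% in early weaned livers, so each d63 library lay above each d23 library. In the separately normalised SD table it was 5.14% to 6.13%. Vtn and the fibrinogen genes were among the highest in every group, whereas Masp1, C6 and F5 were among the lowest. The highest were joined by Kng1 in early weaned d23 livers and by C3 in the d63 and d211 groups. In control d63 livers, Vtn stood at 2420.5 ± 254 FPKM (fragments per length and depth, mean ± SD, n = 3) and F5 at 26.8 ± 6.72. FPKM is a scale per transcript length, so these levels can be set beside each other.

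From d23 to d63 the complement genes rose broadly in control livers, whereas most coagulation genes did not pass the test. Of the 39 members, 22 rose and 0 fell, beside 17.6% of all tested genes called, 7.97% higher and 9.61% lower. At an unadjusted p below 0.05 there were 27 members, beside 34.7% of all genes, and DESeq2 called 27, beside 27.1%. Among the families, 17 of 19 complement genes and 5 of 20 coagulation genes rose, with median log2 fold changes of 0.89 and 0.28. The median over all 39 was 0.59, beside -0.04 over all tested genes. In 28 members each d63 library had a higher FPKM than each d23 library, a pattern found in 16.7% of all tested genes. The opposite was found in 0 members, beside 15.7%. Values after ± are SEs of log2 fold changes unless an SD is named, and adjusted p-values are edgeR's. In bulk tissue, fewer cells of a type and less RNA per cell cannot be told apart.

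The same comparison in early weaned livers, which shares no library with the control comparison, called 20 members higher and 1 lower, beside 27.0% of all tested genes called, 13.5% higher and 13.5% lower. At an unadjusted p below 0.05 there were 26, beside 41.5% of all genes, and DESeq2 called 23 higher and 1 lower, beside 35.3%. Each d63 library was above each d23 library in 22 members (21.3% of all genes) and below in 3, F5, F10 and Kng1 (31.0%). Of the 19 complement genes 14 rose, and of the 20 coagulation genes 6 rose and 1, Kng1, fell. The median over the members was 0.55, beside -0.02 over all genes. Called higher in both groups were 17 members, which is 77.3% of the control calls and 85% of the early weaned calls. Of all tested genes 946, or 6.14%, were called higher in both, which is 77.0% of the control and 45.4% of the early weaned calls in that direction. The 17 members were C1r, C1s, C2, C4bpa, C4bpb, Mbl1, C3, Cfb, Cfi, C8a, C8b, C8g, C9, Vtn, Klkb1, Plg and Cpb2. Called higher in neither were 14: C6, Masp2, F5, F7, F10, F12, F13b, Fga, Fgb, Fgg, Kng1, Proc, Serpinc1 and Serpind1. The remaining 8 passed in 1 of the groups, but no member passed the test of the difference between the groups, given further on.

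**Figure D1:**
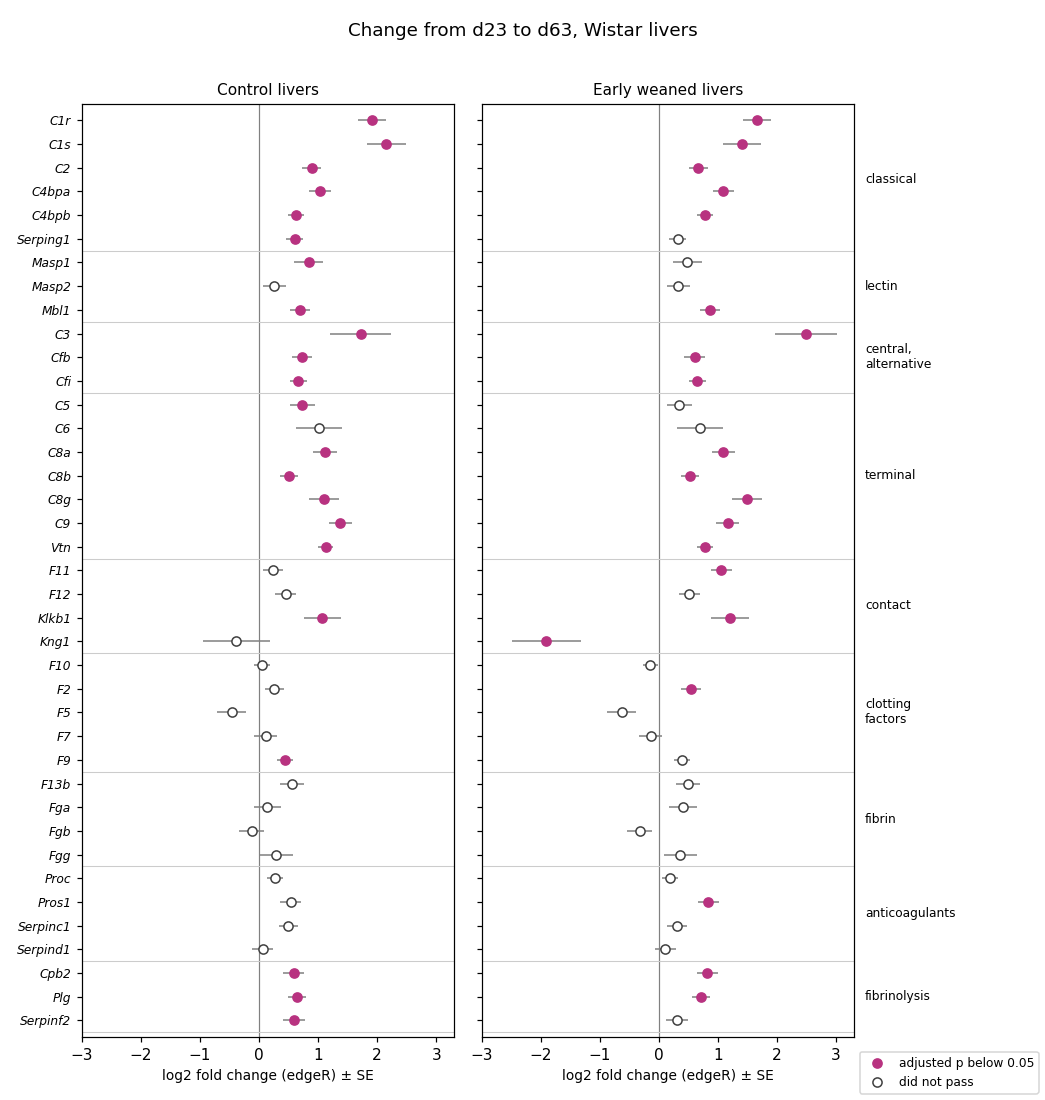
Log2 fold change from d23 to d63 (x axis, edgeR estimate ± SE) of each of 39 members (y axis, grouped by role) in control and early weaned Wistar livers. Filled points passed an adjusted p of 0.05: 22 in controls and 21 in early weaned livers, mostly in the complement rows at the top, with Kng1 the one filled point to the left of 0.

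Among controls, C1s and C1r, the proteases that start the classical pathway, had the largest log2 fold changes, although C3 lay above both without control d23 replicate 3 (2.84, against 2.12 for C1s and 1.89 for C1r). C1r cleaves and activates C1s within the C1 complex. Its FPKM was 76.8, 89.8 and 80.5 in control d23 livers and 326, 246 and 348 at d63. In early weaned livers it was 80.4, 133 and 77.3 at d23 and 312, 291 and 249.8 at d63. No d23 library reached the lowest d63 library in either group. The log2 fold change was 1.91 ± 0.24 (SE, adjusted p = 0.00138) in controls and 1.67 ± 0.23 (SE, adjusted p = 0.00186) in early weaned livers. C1s, which cleaves C4 and C2, stood at 33.3, 40.1 and 33.6 and then 169, 139 and 166 in controls. In early weaned livers it stood at 31.8, 86.3 and 39.6 and then 144, 127 and 116, with replicate 2 high at d23. C1s rose by 2.16 ± 0.33 (SE, adjusted p = 0.00379) in controls and 1.40 ± 0.32 (SE, adjusted p = 0.0116) in early weaned livers.

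The remaining classical pathway genes had smaller log2 fold changes. C4bpa encodes the alpha chain of C4b-binding protein, an inhibitor of the classical C3 convertase. It was at 93.5, 97.2 and 148 FPKM and then 212, 239 and 239 in controls, and at 129, 147 and 132 and then 271, 284 and 248 in early weaned livers. The ages did not overlap in either group, and the rise was 1.03 ± 0.18 (SE, adjusted p = 0.00844) and 1.09 ± 0.19 (SE, adjusted p = 0.004). The beta chain gene C4bpb rose by 0.62 and 0.78, and C2, part of the same convertase, by 0.89 and 0.66. Serping1, the C1 inhibitor that also restrains the contact system, rose in controls by 0.60 ± 0.14 (SE, adjusted p = 0.0208) and was at 0.32 ± 0.14 (SE, adjusted p = 0.119) in early weaned livers.

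Among the lectin pathway genes, Mbl1, a mannose-binding lectin that recognises microbial sugars, was at 95.0, 101 and 147 FPKM and then 177, 200.1 and 175 in controls. Early weaned livers gave 103, 112 and 111 and then 189, 177 and 180.2. The groups did not overlap between ages, and the rise was 0.69 ± 0.17 (SE, adjusted p = 0.0224) and 0.87 ± 0.17 (SE, adjusted p = 0.00673). The lectin-associated protease gene Masp1 rose in controls by 0.84 ± 0.25 (SE, adjusted p = 0.0417) and was at 0.48 ± 0.25 (SE, adjusted p = 0.164) in early weaned livers, and Masp2 passed in neither, at 0.25 and 0.32. Without control d23 replicate 3, Masp2 passed in controls, at 0.56 ± 0.11 (adjusted p = 0.0031). Masp1 passed in early weaned livers without early weaned d23 replicate 2.

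C3, on which all pathways converge, had the widest spread at d23. It was at 351, 239 and 1338 FPKM in control d23 livers, with the third library far above the others, and at 2146, 2061 and 2123 at d63. Early weaned livers gave 401, 289.7 and 507 and then 2028, 2160.5 and 1951. Each d63 library exceeded each d23 library all the same, and C3 rose by 1.72 ± 0.51 (SE, adjusted p = 0.0428) in controls and 2.49 ± 0.53 (SE, adjusted p = 0.00915) in early weaned livers. Without control d23 replicate 3 the control value was 2.84 ± 0.26 (SE, adjusted p = 5.8e-05). The control call was lost on leaving out any other control library, for example at 1.73 ± 0.58 (adjusted p = 0.0839) without control d63 replicate 2. Cfb, the protease subunit of the alternative convertase, rose by 0.73 and 0.61, and Cfi, the protease that inactivates C3b, by 0.66 and 0.65. The early weaned call of Cfb was lost on leaving out any early weaned library. Its control call was lost without control d23 replicate 1 or 2 and without control d63 replicate 1 or 3.

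Of the 7 terminal genes, 6 rose in controls and 5 in early weaned livers. C9, which polymerises into the pore, was at 139, 177 and 158 FPKM and then 399, 374 and 449 in controls, and at 180.2, 251 and 160.5 and then 431, 423 and 369 in early weaned livers. The ages did not overlap, and C9 rose by 1.37 ± 0.19 (SE, adjusted p = 0.00236) and 1.16 ± 0.19 (SE, adjusted p = 0.00337). C8a, the alpha chain of C8, was at 72.7, 98.0 and 115 and then 185, 230.1 and 199 in controls, and at 72.4, 109.8 and 95.5 and then 186, 185 and 174 in early weaned livers. It rose by 1.11 ± 0.20 (SE, adjusted p = 0.00846) and 1.09 ± 0.20 (SE, adjusted p = 0.00553), again without overlap. The gamma chain gene C8g was at 86.6, 98.2 and 178 and then 222, 319 and 232 in controls, with the third d23 library high, and at 91.0, 91.1 and 101 and then 250.3, 235 and 247 in early weaned livers. C8g rose by 1.10 ± 0.25 (SE, adjusted p = 0.018) and 1.49 ± 0.25 (SE, adjusted p = 0.00394), and by 1.49 ± 0.17 in controls without control d23 replicate 3.

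Vtn encodes vitronectin, which binds the terminal complex and keeps it from inserting into membranes. It was at 1031, 1137 and 1176 FPKM and then 2400.1, 2178 and 2684 in controls, and at 1781, 1518 and 1614 and then 2667, 2529 and 2558 in early weaned livers. The ages were apart in both groups, with early weaned d23 livers starting higher, and Vtn rose by 1.12 ± 0.13 (SE, adjusted p = 0.00124) and 0.78 ± 0.13 (SE, adjusted p = 0.00406). The beta chain gene C8b rose by 0.51 and 0.52. C5, the source of the C5a peptide, rose in controls by 0.73 ± 0.21 (SE, adjusted p = 0.0371) and was at 0.34 ± 0.21 (SE, adjusted p = 0.239) in early weaned livers. C6, the component that binds C5b, was uneven, at 21.2, 28.1 and 16.2 and then 41.3, 67.4 and 22.5 in controls, and at 23.1, 33.1 and 15.3 and then 29.5, 40.1 and 37.3 in early weaned livers. Its groups overlapped in both, at 1.02 ± 0.39 (SE, adjusted p = 0.0948) and 0.70 ± 0.39 (SE, adjusted p = 0.204).

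**Figure D2:**
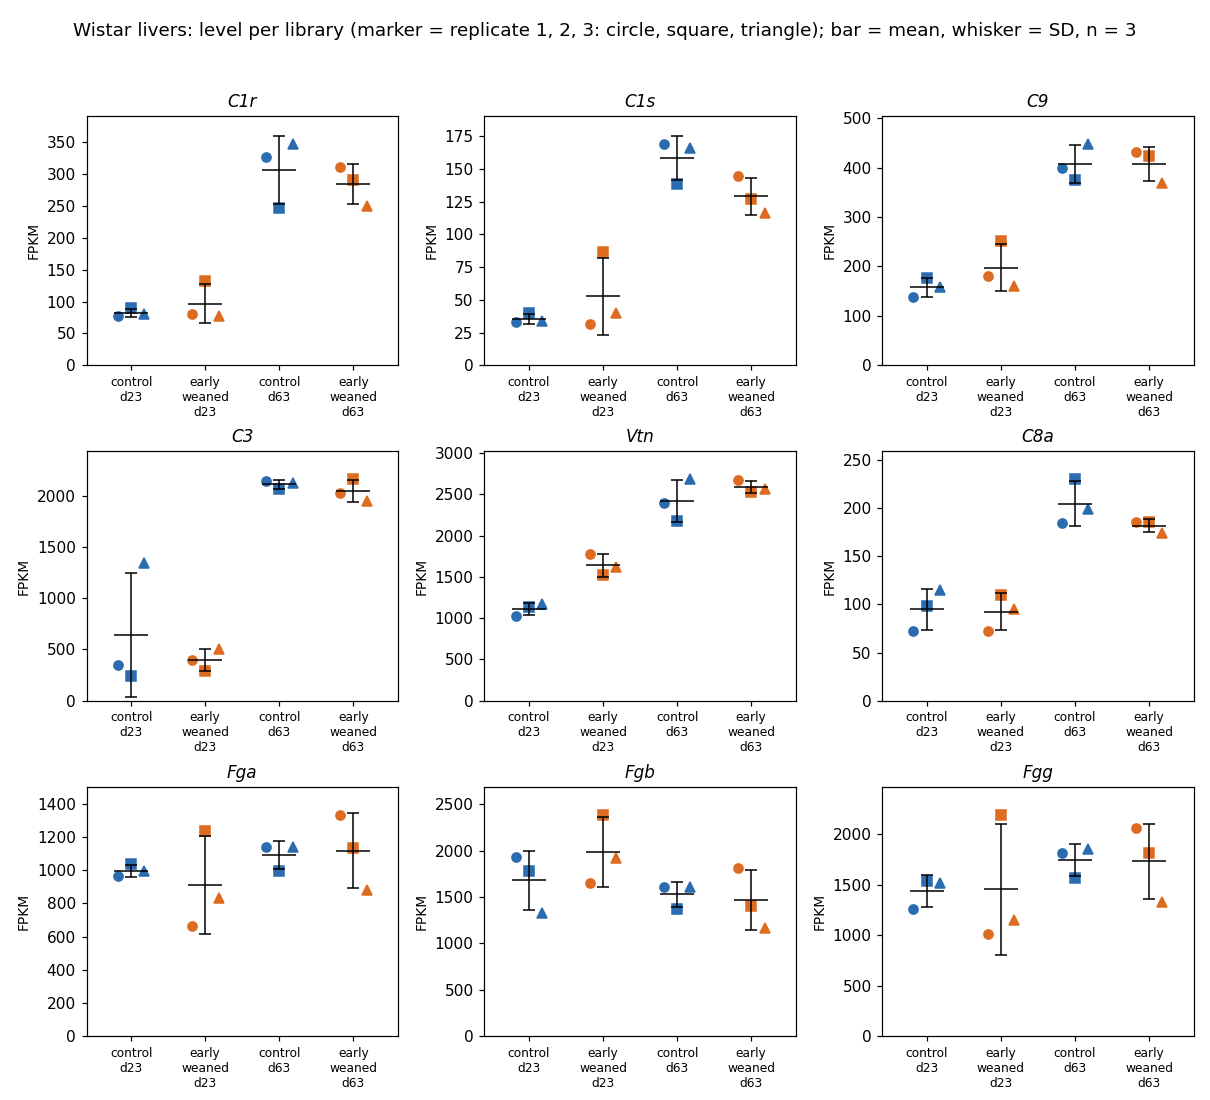
FPKM (y axis, from 0) of 9 members in each Wistar library, by group (x axis); bars are means and whiskers SD (n = 3). C1r, C1s, C9, C3, Vtn and C8a are higher in each d63 library than in each d23 library of the same treatment, whereas the 3 fibrinogen genes overlap except Fgg in controls, and control d23 replicate 3 stands out for C3.

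In the contact system, which starts clotting at surfaces and releases bradykinin, the genes differed from each other. Klkb1, encoding prekallikrein, was at 73.8, 92.8 and 41.6 FPKM and then 107, 160.2 and 168 in controls, and at 58.7, 98.0 and 60.0 and then 185, 151 and 125 in early weaned livers. The ages did not overlap, and Klkb1 rose by 1.07 ± 0.32 (SE, adjusted p = 0.0407) and 1.20 ± 0.32 (SE, adjusted p = 0.0203). F11, encoding factor XI, was at 70.7, 82.5 and 51.5 and then 69.4, 79.2 and 91.2 in controls, where the ages overlapped. In early weaned livers F11 was at 47.9, 53.7 and 48.7 and then 99.0, 98.5 and 90.5, without overlap. It was at 0.23 ± 0.17 (SE, adjusted p = 0.366) in controls and rose by 1.06 ± 0.18 (SE, adjusted p = 0.00369) in early weaned livers. F12, encoding factor XII, was at 0.45 ± 0.18 (SE, adjusted p = 0.0973) and 0.51 ± 0.18 (SE, adjusted p = 0.0516), and passed in controls without control d23 replicate 3, at 0.58 ± 0.17 (adjusted p = 0.0226).

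Kng1 encodes kininogen, the source of bradykinin, and rat T-kininogen genes are close copies of it, so its level is uncertain. It was at 872, 1048 and 612 FPKM and then 346, 1258 and 321 in controls, with d63 replicate 2 high. Early weaned livers gave 2002, 2368 and 1681 and then 904, 248 and 344, so each d63 library was below each d23 library. The value was -0.39 ± 0.56 (SE, adjusted p = 0.658) in controls and -1.33 ± 0.48 (adjusted p = 0.102) there without control d63 replicate 2. In early weaned livers Kng1 fell, at -1.91 ± 0.58 (SE, adjusted p = 0.0345). That call was lost on leaving out any one of 5 of the 6 early weaned libraries, at adjusted p from 0.0536 to 0.114, and held without d63 replicate 1.

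The clotting proteases and their cofactor mostly did not pass. F2, the prothrombin gene, was at 822, 889 and 1174 FPKM and then 994, 1331 and 1116 in controls, and at 840.4, 834 and 839.8 and then 1244, 1089 and 1051 in early weaned livers. The ages overlapped in controls but not in early weaned livers, and F2 was at 0.26 ± 0.17 (SE, adjusted p = 0.296) and rose by 0.55 ± 0.17 (SE, adjusted p = 0.0356). The overlap came from control d23 replicate 3, without which F2 passed in controls too, at 0.43 ± 0.15 (adjusted p = 0.0445). The early weaned call of F2 was lost on leaving out any early weaned library, and limma on the FPKM scale did not call it. F9, encoding factor IX, was at 178, 197 and 195 and then 270.0, 243 and 255 in controls, and at 217, 235 and 209 and then 304, 259 and 234 in early weaned livers. F9 rose in controls by 0.44 ± 0.14 (SE, adjusted p = 0.0495) and was at 0.39 ± 0.14 (SE, adjusted p = 0.0581) in early weaned livers, on either side of the threshold. F10 was at 0.05 and -0.15, and F7, the partner of tissue factor, at 0.11 and -0.14. F5, the cofactor of factor X, was lower at d63 in both, at -0.46 ± 0.25 (SE, adjusted p = 0.209) and -0.63 ± 0.25 (SE, adjusted p = 0.0804). In early weaned livers F5 was called lower by limma on the FPKM scale. EdgeR also called it there when only these groups were fitted, and without early weaned d23 replicate 1.

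None of the 3 fibrinogen genes passed in either group. Fga, the alpha chain gene, was at 964, 1036 and 993 FPKM and then 1139, 996 and 1142 in controls, and at 664, 1235 and 835 and then 1336, 1133 and 883 in early weaned livers. Fgb, the beta chain gene, was at 1927, 1779.5 and 1328 and then 1608, 1375 and 1607, and at 1647, 2388 and 1922 and then 1810.4, 1408 and 1171. Fgg, the gamma chain gene, was at 1257, 1542 and 1523 and then 1818, 1567 and 1855, and at 1018, 2197 and 1149 and then 2061, 1813 and 1332. Early weaned d23 replicate 2 was the highest of its group for all 3. The log2 fold changes in controls and early weaned livers were 0.14 ± 0.23 (SE, adjusted p = 0.703) and 0.41 ± 0.23 (SE, adjusted p = 0.203) for Fga, -0.13 ± 0.22 (SE, adjusted p = 0.704) and -0.33 ± 0.22 (SE, adjusted p = 0.277) for Fgb, and 0.29 ± 0.28 (SE, adjusted p = 0.498) and 0.36 ± 0.28 (SE, adjusted p = 0.351) for Fgg. Without early weaned d23 replicate 2, edgeR called Fga and Fgg higher in the early weaned livers. The same fit also called Masp1 and Serpinf2 higher and no longer called Cfb, F2 or Kng1. F13b, the carrier subunit of the fibrin cross-linking enzyme, was at 0.56 and 0.49 and did not pass, but passed in controls without control d23 replicate 3, at 0.74 ± 0.19 (adjusted p = 0.0129).

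Of the genes that restrain clotting, none of 4 passed in controls and 1 passed in early weaned livers. Serpinc1, encoding antithrombin, was at 378, 435 and 453 FPKM and then 514, 710.4 and 549 in controls, and at 468, 543 and 449.7 and then 593, 520.0 and 551 in early weaned livers. It was at 0.49 ± 0.16 (SE, adjusted p = 0.0585), with no overlap between ages, and at 0.31 ± 0.16 (SE, adjusted p = 0.177), with overlap. Without control d23 replicate 3 it passed in controls, at 0.55 ± 0.18 (adjusted p = 0.032). Proc, encoding protein C, was at 226, 207 and 236 and then 256, 257 and 293 in controls, and at 279, 219 and 276 and then 291, 255 and 265 in early weaned livers. Its values were 0.27 ± 0.14 (SE, adjusted p = 0.183) and 0.19 ± 0.14 (SE, adjusted p = 0.315). Pros1, encoding its cofactor protein S, was at 0.54 ± 0.17 (SE, adjusted p = 0.0555) and rose by 0.84 ± 0.18 (SE, adjusted p = 0.00858), and passed in controls without control d63 replicate 2, at 0.70 ± 0.16 (adjusted p = 0.0291). Serpind1, encoding heparin cofactor II, was at 0.06 and 0.11.

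The genes of clot dissolution rose in controls, 3 of 3, and 2 of 3 rose in early weaned livers. Plg, encoding plasminogen, was at 548, 615 and 702 FPKM and then 855, 1018 and 1018 in controls, and at 551, 667 and 632 and then 928, 969 and 887 in early weaned livers. The ages did not overlap, and Plg rose by 0.64 ± 0.15 (SE, adjusted p = 0.0195) and 0.71 ± 0.15 (SE, adjusted p = 0.00849). Among the genes that restrain it, Cpb2, a carboxypeptidase that slows fibrinolysis, rose by 0.58 ± 0.18 (SE, adjusted p = 0.0437) and 0.82 ± 0.18 (SE, adjusted p = 0.00959). Serpinf2, encoding antiplasmin, rose in controls by 0.59 ± 0.18 (SE, adjusted p = 0.0487) and was at 0.31 ± 0.18 (SE, adjusted p = 0.233) in early weaned livers. Serpinf2 passed in early weaned livers without early weaned d23 replicate 2.

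How many control calls stood depended on the libraries. Leaving out control d23 replicate 3, edgeR called 27 members higher, the 22 and 5 more (Masp2, F2, F12, F13b and Serpinc1), while the share of all genes called rose to 37.9%. Without control d23 replicate 1 or 2 there were 8 and 7 calls, beside 4.08% and 4.70% of all genes. The 8 were C1r, C1s, C2, C4bpa, C4bpb, C8a, C9 and Vtn, and the 7 were these without C4bpb. All other control calls of the main fit were lost in both of these fits. Without control d63 replicate 1, 2 or 3 there were 11, 10 and 11, beside 5.42%, 7.72% and 6.02%. Fitted on the control groups alone, 4 were called (C1r, C1s, C9 and Vtn), beside 1.92% of all genes. These same 4 were called under each of 15 alternatives. In early weaned livers 16 were called higher under each of 15 alternatives, among them C1r, C1s, C3, C9, F11, Plg and Vtn. Called higher in the main fit but not under each alternative were C8b, Cfb, F2 and Klkb1.

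Other genes of these cascades gave the following counts. Of 27 further complement genes, 7 rose and 0 fell with age in controls, and 8 rose and 0 fell in early weaned livers. C1rl, a C1r-like protease, was at 10.8, 12.4 and 12.9 FPKM and then 47.4, 48.6 and 49.2 in controls, and at 15.2, 23.8 and 16.6 and then 44.2, 37.3 and 36.9 in early weaned livers. It rose by 2.01 ± 0.18 (SE, adjusted p = 0.00032) and 1.21 ± 0.18 (adjusted p = 0.0022), without overlap. C4b rose by 1.55 ± 0.44 (adjusted p = 0.0361) and 2.82 ± 0.46 (adjusted p = 0.0034), and its near copy C4a can share its reads, so the level of each is uncertain. The FPKM of C4b overlapped between ages in controls, at 16.6 ± 10.7 and then 48.6 ± 23.5 (SD, n = 3), but not in early weaned livers.

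Of 25 further coagulation and fibrinolysis genes, 2 rose and 7 fell in controls, and 3 rose and 7 fell in early weaned livers. The shares of all genes that rose and fell, given above, were 7.97% and 9.61% in controls and 13.5% each in early weaned livers. Those that fell in both included F8 and Vwf, named here with Procr as examples and encoding factor VIII and von Willebrand factor, which are made in endothelium. F8 was at 2.60, 2.75 and 1.89 FPKM and then 1.59, 1.10 and 1.55 in controls, and fell, at -0.76 ± 0.18 (SE, adjusted p = 0.0217), and in early weaned livers it fell at -0.69 ± 0.18 (adjusted p = 0.0219). Vwf fell, at -0.89 ± 0.25 (adjusted p = 0.0366) and -1.08 ± 0.25 (adjusted p = 0.0132). The endothelial protein C receptor gene Procr fell, at -1.54 ± 0.27 (adjusted p = 0.0081) and -2.31 ± 0.28 (adjusted p = 0.0010). Serpina10, the protein Z-dependent inhibitor, is one of the 2 counted in controls and is given by library only, because it was listed at or near 0 in some libraries and not in others of one group: 0, 0 and 0.4 in control d23, 60.2, 66.2 and 6.64 in early weaned d23, 73.8, 99.4 and 78.6 in control d63 and 88.4, 0 and 0 in early weaned d63 livers.

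Markers of other cell types moved with age as well. The summed FPKM of 9 sinusoidal endothelial markers ran from 113 to 123 in control d23, 65.5 to 103 in control d63, 111 to 138 in early weaned d23 and 44.3 to 69.5 in early weaned d63 livers. Of these, 2 fell in controls (Lyve1 and Stab1) and 6 in early weaned livers, and none was at or under the floor of 3 fragments. Of 9 hepatocyte markers, 2 rose in controls and 5 in early weaned livers, and none was at or under that floor in any group. Their summed FPKM was 81289 to 129620 and then 93963 to 96542 in controls, and 66172 to 73661 and then 94883 to 102490 in early weaned livers. The median log2 fold change of these markers was 0.13 in controls and 0.68 in early weaned livers, beside 0.59 and 0.55 for the members. Of 8 T and B cell markers, 2 and 4 rose, with summed FPKM of 0.98 to 1.54 and then 3.60 to 8.12 in controls, and 0.96 to 1.27 and then 3.22 to 5.78 in early weaned livers, and Ms4a1 was at or under the floor in d23 livers. Of 10 stellate cell markers, 3 fell in each group and 1, Rgs5, rose in early weaned livers. Cd163 of 9 Kupffer cell markers and Tfrc of 5 red blood cell precursor markers fell in both groups, and 1 of 6 bile duct markers fell in each. Of 4 neutrophil and 2 platelet markers that passed the filter, 0 were called. The part of these shifts in the members' changes was not tested.

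Liver transcription factors and acute phase regulators moved in both directions. Of 21 tested hepatocyte transcription factors and acute phase regulators, 3 rose and 1 fell in controls, and 5 rose and 4 fell in early weaned livers. Hnf4a, a factor that sets hepatocyte identity, was at 65.9, 69.3 and 98.8 FPKM and then 133, 144 and 158 in controls and rose by 0.90 ± 0.17 (SE, adjusted p = 0.0098), and by 0.75 ± 0.17 (adjusted p = 0.0120) in early weaned livers. Cebpb, an acute phase factor, was at 151, 148 and 30.6 and then 45.8, 24.8 and 26.9 in controls. Cebpb fell there, at -1.75 ± 0.55 (SE, adjusted p = 0.0495), and in early weaned livers, at -2.62 ± 0.56 (adjusted p = 0.0095). Control d23 replicate 3, the library high for C3, was the low one of its group for Cebpb.

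Early weaning was followed by no member called by edgeR at d23 and by 1, Vtn, called by DESeq2. The edgeR count was 0 of 39, with 2 at an unadjusted p below 0.05, beside 0.013% of all tested genes called (0.00649% higher and 0.00649% lower) and 6.2% at that unadjusted p. Of the members 25 were higher, with a median log2 difference of 0.11 beside -0.03 over all genes. Without control d23 replicate 3 the median was 0.19 and 32 were higher, and without early weaned d23 replicate 2 it was 0.01 and 20 were higher. SEs of single members ran from 0.13 to 0.57 with a median of 0.18.

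The smallest p at d23 belonged to Vtn, at 1031, 1137 and 1176 FPKM in controls and 1781, 1518 and 1614 in early weaned livers, with every early weaned library above every control. The edgeR value was 0.53 ± 0.13 (SE, adjusted p = 0.518), and DESeq2 called it at 0.53 ± 0.10 (adjusted p = 0.0002), the one member called, beside 0.738% of all genes. F11, at 70.7, 82.5 and 51.5 in controls and 47.9, 53.7 and 48.7 in early weaned livers, overlapped by 1 library and was at -0.47 ± 0.17 (SE, adjusted p = 0.76). Kng1, at 872, 1048 and 612 in controls and 2002, 2368 and 1681 in early weaned livers, did not overlap and was at 1.24 ± 0.57 (SE, adjusted p = 0.803). Serping1, at 322, 348 and 334 in controls and 399.6, 407 and 437 in early weaned livers, did not overlap either and was at 0.28 ± 0.14 (SE, adjusted p = 0.833). In all, 4 members (these but F11, and F9) were higher in each early weaned library, beside 4.18% of all genes, and 0 were lower in each, beside 4.12%.

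C3 and C1s show how single libraries set the d23 difference. C3 was at -0.72 ± 0.50 (SE, adjusted p = 0.927), but at 0.39 ± 0.24 (adjusted p = 0.734) without control d23 replicate 3. C1s was at 0.55 ± 0.31 (SE, adjusted p = 0.887), but at -0.04 ± 0.17 (adjusted p = 1) without early weaned d23 replicate 2. Neither passed in any of these fits.

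At d63 no member passed either. EdgeR called 0 of 39 members, with 0 at an unadjusted p below 0.05 and 0 by DESeq2, beside 0.0% of all genes called and 6.05% at the unadjusted p. On the TMM scale 25 members were higher with a median of 0.06, but on the FPKM scale 16 were higher with a median of -0.03, so no common direction is given. The members of smallest p were C4bpb, F11, Cpb2 and Pros1. C4bpb was at 307, 316 and 306 FPKM in controls and 344, 375 and 341 in early weaned livers, without overlap, and at 0.28 ± 0.13 (SE, adjusted p = 0.822). F11, at 69.4, 79.2 and 91.2 in controls and 99.0, 98.5 and 90.5 in early weaned livers, overlapped and was at 0.35 ± 0.17 (SE, adjusted p = 0.829). Cpb2 was at 0.31 ± 0.18 (SE, adjusted p = 0.869) and Pros1 at 0.29 ± 0.17 (SE, adjusted p = 0.885). By FPKM, C4bpa and C4bpb were higher in each early weaned library (4.93% of all genes) and C2 lower in each (13.7%).

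Whether the effect of early weaning differed between d23 and d63 was tested directly, and 0 members passed, beside 0.00649% of all genes, with 1 at an unadjusted p below 0.05 (4.72% of all genes). That was F11, whose difference of log2 effects (d63 minus d23) was 0.82 ± 0.25 (SE, adjusted p = 0.975). Kng1 was at -1.52 ± 0.80 (SE, adjusted p = 1), Vtn at -0.34 ± 0.19 (SE, adjusted p = 1) and C1s at -0.75 ± 0.44 (SE, adjusted p = 1). Without control d63 replicate 2 Kng1 was at -0.58 ± 0.61, and without early weaned d23 replicate 2 C1s was at -0.16 ± 0.23, with adjusted p of 1 for both.

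In SD rats at d211, all 20 coagulation genes were lower after early weaning on the TMM scale and 14 on the FPKM scale, but none passed the threshold. EdgeR called 0 of 39, beside 0.719% of all genes (0.419% higher and 0.3% lower). At an unadjusted p below 0.05 there were 15 members, 14 of them lower, beside 17.3% of all genes. Of the 20 coagulation genes 20 were lower and of the 19 complement genes 13, with a median over all members of -0.26 beside 0.02 over all genes. On the FPKM scale, where the median of all genes was 0.13, 14 of 20 and 10 of 19 were lower and the members' median was -0.05. Relative to the median of all genes, the members' median was thus -0.28 on the first scale and -0.19 on the second. DESeq2 called 8 members lower, beside 7.49% of all genes: C4bpb, C8g, Vtn, F12, Kng1, F2, Serpinc1 and Serpind1. Without early weaned replicate 2, edgeR called 3 lower (C4bpb, F12 and Vtn), beside 3.45% of all genes.

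Markers of other cell types differed between these groups too, with 0 called by edgeR. The summed FPKM of 6 bile duct markers was 8.39 to 13.5 in control, 16.3 to 30.7 in early weaned and 10.1 to 15.5 in leucine livers, so the early weaned libraries lay above the others, and Krt7 was at or under the floor in controls. Most of it was Epcam, at 9.29 ± 1.96 (SD, n = 3) in controls and 22.2 ± 7.42 in early weaned livers. All 5 red blood cell precursor markers were higher on the TMM scale, among them Tfrc, at 6.97 ± 2.80 FPKM (SD, n = 3) in controls and 18.6 ± 4.51 in early weaned livers, without overlap. The summed levels of that list overlapped, at 187 to 473 in controls and 358 to 913 in early weaned livers. Of 9 hepatocyte markers 1 was higher on the TMM scale. The median log2 difference of these markers was -0.35, beside -0.26 for the members. Their summed FPKM overlapped, at 84463 to 92523 in controls and 82648 to 88467 in early weaned livers. The part of these markers in the members' differences was not tested.

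The member of smallest p at d211 was C8g, at 248, 311 and 309.9 FPKM in controls and 217, 221 and 242 in early weaned livers. Each early weaned library was below each control, and the value was -0.57 ± 0.14 (SE, adjusted p = 0.0818). F12 was at 487, 550.4 and 518 in controls and 413, 426 and 401 in early weaned livers, without overlap, and at -0.54 ± 0.13 (SE, adjusted p = 0.0851). Serpinc1 was at 698, 731 and 721 in controls and 639, 598 and 625 in early weaned livers, again apart, and at -0.42 ± 0.12 (SE, adjusted p = 0.11). Serpind1 was at 326, 351 and 381 in controls and 296, 309.5 and 265 in early weaned livers, and at -0.49 ± 0.14 (SE, adjusted p = 0.121). These 4 missed the edgeR threshold, and DESeq2 gave them adjusted p of 0.0063, 0.0042, 0.0028 and 0.0258.

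Across the libraries at d211, 10 members had a lower FPKM in each early weaned library, beside 4.24% of all genes, and 4 a higher one, beside 20.8%. The 10 were C4bpb, C8g, Mbl1, F2, F12, Proc, Serpinc1, Serpind1, Serping1 and Vtn. Mbl1 was at 188, 199.5 and 190.2 in controls and 170.4, 186 and 170.4 in early weaned livers, Proc at 372, 410.1 and 399.6 in controls and 356, 343 and 369 in early weaned livers, and F2 at 1174, 1358 and 1224 in controls and 1026, 1125 and 949 in early weaned livers. Vtn was at 2838, 3348 and 2833 in controls and 2101, 2682 and 2099 in early weaned livers, with control and early weaned libraries apart, and at -0.60 ± 0.18 (SE, adjusted p = 0.137). The 4 that were higher were C1s, C2, C6 and Cpb2. C1s, at 208, 203 and 184 in controls and 289, 240.0 and 342 in early weaned livers, was at 0.33 ± 0.13 (SE, adjusted p = 0.244), and C6, at 46.8, 49.1 and 44.7 in controls and 64.5, 53.9 and 69.0 in early weaned livers, at 0.20 ± 0.12 (SE, adjusted p = 0.467). Cpb2, though higher in each library by FPKM, was at -0.03 by TMM.

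**Figure D3:**
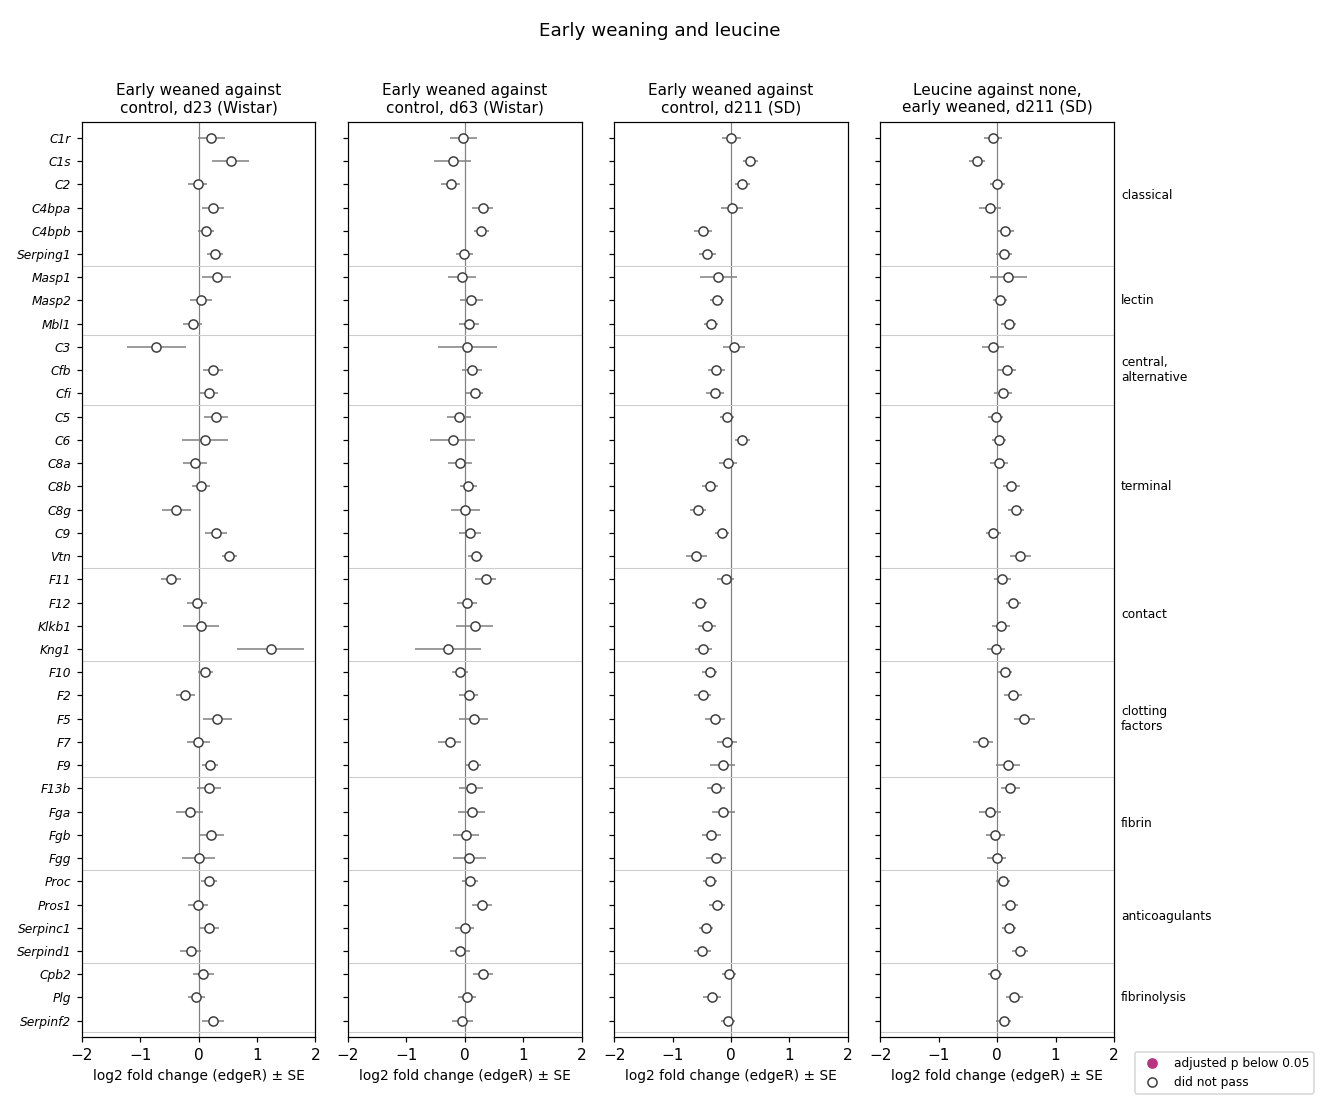
Log2 fold change (x axis, edgeR on the TMM scale, ± SE) of 39 members (y axis, grouped by role) for early weaning at d23, d63 and d211 and for leucine in early weaned livers at d211. All points are open because 0 members passed in any panel; the third panel has 33 of 39 points left of 0, against 24 on the FPKM scale, and the fourth 27 right of 0, against 16 on the FPKM scale.

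Leucine in the drinking water of early weaned rats was followed by 0 called members against early weaned rats without it, by edgeR and by DESeq2, beside 0.36% of all genes called by edgeR (0.18% higher and 0.18% lower). At an unadjusted p below 0.05 there were 4 (13.1% of all genes). On the TMM scale 27 members were higher, with a median of 0.11, and on the FPKM scale 16 were higher, with a median of -0.04. Leaving out 1 library at a time, the TMM median ran from 0.04 to 0.17. The early weaned libraries of this comparison are also those of the comparison with controls, so the directions are not independent of each other.

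Serpind1 had the smallest p, at 296, 309.5 and 265 FPKM without leucine and 333, 320.1 and 373 with it, and every leucine library was the higher. Its value was 0.39 ± 0.14 (SE, adjusted p = 0.27). F5 was at 10.6, 12.4 and 10.4 without leucine and 11.9, 13.5 and 16.2 with leucine, with overlap, and at 0.47 ± 0.17 (SE, adjusted p = 0.275). C1s was at 289, 240.0 and 342 without leucine and 199, 192 and 220.0 with leucine, lower in each leucine library, and at -0.35 ± 0.13 (SE, adjusted p = 0.297). C8g was at 217, 221 and 242 without leucine and 262, 242 and 262 with leucine, which overlapped at the edge, and at 0.33 ± 0.14 (SE, adjusted p = 0.348). Serpind1 was the 1 member higher in each leucine library (5.07% of all genes), and 7 were lower in each (17.8%): C1s, C3, C9, Masp2, F7, Kng1 and Cpb2.

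Against controls, early weaned rats given leucine showed 0 called members by edgeR and by DESeq2, beside 0.0133% of all genes called by edgeR (0.00666% higher and 0.00666% lower). At an unadjusted p below 0.05 there were 4, all lower, beside 10.8% of all genes. Of the members 33 were lower on the TMM scale (median -0.12) and 26 on the FPKM scale (median -0.06). Kng1 was at 504, 644 and 644 FPKM in controls and 438, 444 and 443 with leucine, without overlap, and at -0.50 ± 0.15 (SE, adjusted p = 0.369). Fgb was at 1965, 1939.9 and 2169 in controls and 1605, 1650.2 and 1642 with leucine, also apart, and at -0.37 ± 0.16 (SE, adjusted p = 0.456). C4bpb was at 413, 426 and 415 in controls and 331, 343 and 355 with leucine, and at -0.34 ± 0.15 (SE, adjusted p = 0.457). Klkb1 was at 136, 111 and 161 in controls and 106, 108 and 119 with leucine, with overlap, and at -0.35 ± 0.15 (SE, adjusted p = 0.46). By FPKM, C2 and C6 were higher in each leucine library (9.94% of all genes), and C4bpb, F10, Fga, Fgb, Fgg, Kng1, Serpinc1 and Serping1 were lower in each (6.39%).

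**Figure D4:**
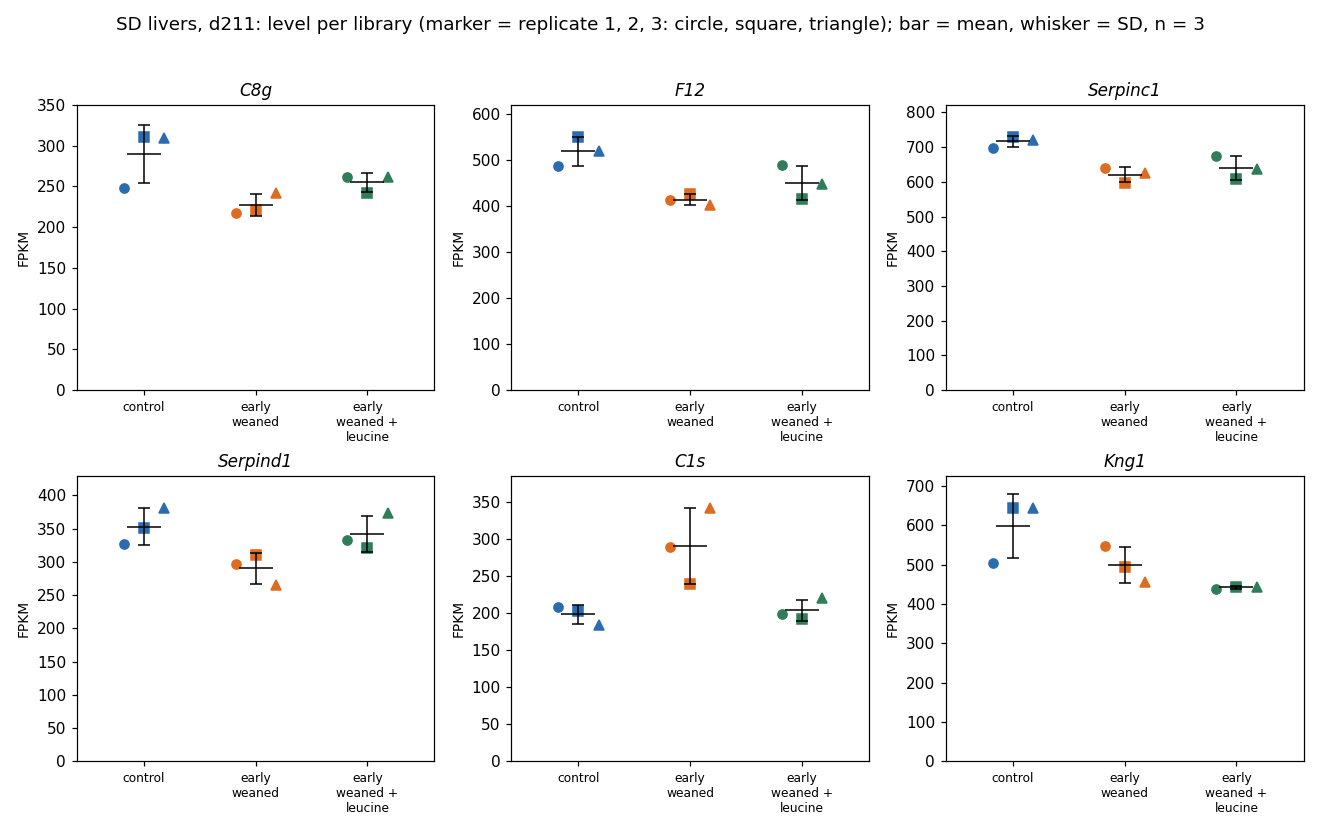
FPKM (y axis, from 0) of 6 members in each SD liver at d211, by group (x axis); bars are means and whiskers SD (n = 3). C8g, F12, Serpinc1 and Serpind1 lie lower in each early weaned library than in each control, C1s lies higher, and Kng1 has its lowest values in the leucine group.

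The remaining members followed by library passed in no d211 comparison. C3 was at 1736, 1939 and 1254 FPKM in controls, 1966, 2079.6 and 1848 in early weaned livers and 1745, 1702 and 1594 with leucine. C9 was at 469.8, 420.1 and 460.4 in controls, 509.6, 459.5 and 432 in early weaned livers and 415, 360.5 and 423 with leucine. Both overlapped between controls and each other group. Plg was at 1079.7, 1081 and 998 in controls, 929, 1088 and 889.7 in early weaned livers and 1068, 1054 and 1095 with leucine. F9 was at 312, 227 and 217 in controls, 248, 319 and 215 in early weaned livers and 233, 269 and 302 with leucine. F11 was at 96.7, 89.4 and 101 in controls, 91.7, 113 and 107 in early weaned livers and 107, 86.7 and 104 with leucine. These 3 overlapped between all groups. Fga was at 1999, 1766 and 1711 in controls, 1996, 2294 and 1445 in early weaned livers and 1556, 1657 and 1549 with leucine. Fgg was at 3062, 2797 and 2845 in controls, 2987, 3147 and 2239.8 in early weaned livers and 2430.3, 2576 and 2509.8 with leucine. For both, each leucine library was below each control library, whereas early weaned libraries without leucine overlapped both.

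Several members lie side by side in the genome: 9 pairs, covering 15 members, have gaps of at most 50000 bases in the tables' coordinates, whose rat build is not named. C1r (chromosome 4, 157125998 to 157136829) and C1s (157143592 to 157155609) are 6763 bases apart and on opposite strands, and both rose in both age comparisons. Klkb1 and F11 are 4000 bases apart, and Klkb1 rose in both, F11 in the early weaned livers. F10 and F7 are 1395 bases apart, and neither passed edgeR's test in any comparison. Cfb and C2 are 267 bases apart on one strand, so reads near their ends may be shared and their levels are uncertain to that extent, and both rose in both.

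Ratios of FPKM within complexes, a description without a test, differed between groups for some chains. Fgg to Fga stayed between group means of 1.44 and 1.60. Fgb to Fga was 1.68 ± 0.33 (SD, n = 3) in control d23 and 2.24 ± 0.28 in early weaned d23 livers, 1.40 ± 0.02 and 1.31 ± 0.06 at d63, and 0.98 to 1.12 in the SD groups of the other table. At d63 the 2 groups lay within 1.24 to 1.41, below each early weaned d23 library. C8g to C8b was 0.77 ± 0.18 and 0.59 ± 0.08 at d23 and 1.19 ± 0.28 and 1.15 ± 0.08 at d63. C1r to C1s was 1.61 ± 0.05 in control, 1.29 ± 0.07 in early weaned and 1.54 ± 0.13 in leucine livers at d211, and the early weaned libraries were below those of both other d211 groups.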

How the data were processed

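RNA came from 21 samples of rat liver, and libraries were made with a SMARTER mRNA kit, per the labels' protocols. The authors deposited 1 table for 12 Wistar and 1 for 9 SD samples, each with estimated counts and FPKM values per gene, per the file headers. Which aligner and counter made them is not given in the sources used here. Mouse builds, GRCm38 and mm10, appear in the submitters' processing notes, whereas the tables hold rat genes. The deposited counts are whole numbers. Of the low counts, 29.3% to 40.2% per library were multiples of 4, so most were not. By assumption, 1 fragment was taken as 4 units and the floor of 3 fragments as 12 units. The floor covers counting error only. The deposited FPKM values were normalised by the authors for length and depth.

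Each table was fitted alone with edgeR 4.0.16 in R 4.3.3 (quasi-likelihood test, two-sided, TMM scale, minimum count 10, Benjamini-Hochberg adjustment over 15416 Wistar and 15019 SD genes). All groups of a table shared 1 estimate of spread. DESeq2 1.42.0, limma 3.58.1 on log2(FPKM + 1), other filters and scalings, and leaving out each library were alternatives. On simulated data for the control age comparison, over 15077 genes, edgeR recovered 29 of 100 genes changed 2-fold and 84 of 100 changed 4-fold. For early weaning at d23, d63 and d211 it recovered 30, 28 and 43 of 100 changed 2-fold, over 15091, 15040 and 14596 genes. False calls numbered 3 in the control age comparison and 3, 2 and 7 for early weaning. Only 100 genes were changed by each amount, whereas the control age comparison of the real data called 2710 genes. The median SE of the members there was 0.18. The recovery is thus not that of the members, and their power was not tested.

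The labels do not say that samples were separate animals, so p-values reflect only sample to sample spread, which may be technical. The most alike pair of libraries had identical counts in 0.33% of genes. Members and gene lists were chosen with earlier results of these data known. Of 79 further pathway symbols 74 were matched, and of 72 cell type markers 68. The text names, in each comparison, the members that passed (the 6 of smallest p in each direction where over 12 passed, the 4 of smallest p where under 4 did) and gives library values for a set panel. Other members are given by role. Of the other cascade genes and regulators that passed, examples were chosen after their values were seen.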

Additional observations from a re-analysis of the deposited data

Results flagged for a closer look

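In Vtn, Serping1, C4bpb and C2 the early weaned and control libraries were apart at 2 ages, in opposite directions, by FPKM. The difference between the ages was not tested, because the ages were in different strains and in tables normalised separately. Vtn had log2 differences of 0.53 at d23 and -0.60 at d211. Serping1 had 0.28 at d23 and -0.40 at d211. C4bpb had 0.28 at d63 and -0.48 at d211. C2 ran from 63.5 to 70.6 FPKM in early weaned and 79.8 to 95.3 in control livers at d63. At d211 it ran from 76.5 to 103 in early weaned and 68.7 to 72.4 in control livers. None of these members passed edgeR's threshold for early weaning at any of these ages. With 39 members and 3 ages, some pairs of this kind can arise by chance.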

How the results depend on the processing

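Each comparison of 2 groups was refitted under 15 alternatives. With DESeq2, 1 member was called at d23 and 8 at d211, against 0 by edgeR. With only the groups of the contrast fitted, 4 of the 22 control age calls remained. Leaving out 1 library at a time gave 7 to 27 control age calls, 16 to 22 early weaned age calls and 0 to 3 calls at d211. The same gave medians of 0.55 to 0.68 for the control age comparison, 0.54 to 0.72 for the early weaned one, 0.0316 to 0.102 for early weaning at d63, -0.378 to -0.177 at d211, 0.0354 to 0.170 for leucine against early weaned, -0.198 to -0.0761 for leucine against control and -0.145 to 0.0418 for the age difference of the early weaning effect. Limma on log2(FPKM + 1) and on log2(FPKM + 0.1) gave medians of -0.0288 and -0.0288 at d63, -0.0546 and -0.0552 at d211, -0.0441 and -0.0442 for leucine against early weaned, 0.424 and 0.424 for the early weaned age comparison and -0.170 and -0.170 for the age difference. The medians at d63 and for leucine against early weaned so changed sign with the FPKM scale, and the cause of these shifts was not tested. With a replicate block, 19 members were called in the control and 19 in the early weaned age comparison and 0 for early weaning and leucine. Deviations of same-numbered samples correlated between -0.11 and 0.13, and in no comparison were all 3 pairs over 0.1. Each control d23 sample matched best with the early weaned d23 sample of its own number (0.045 to 0.127). Each early weaned d23 sample did so with the early weaned d63 samples (0.031 to 0.039). The correlations are low, but they cannot exclude a pairing by number, and the main fits used none. Group sizes of 3 limit what can be seen. The biological coefficient of variation over all tested genes was 0.404 (Wistar) and 0.379 (SD). For the members, the median coefficient of variation of FPKM within groups ran from 5.88% to 12.4%.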
